A study of Mus musculus with 6 samples.

Results

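Most of the genes described here encode the extracellular matrix and the integrins that bind it. They were chosen by symbol: collagen alpha chains, laminin chains, genes whose symbol starts with Itga or Itgb, thrombospondins 1 to 4, and Fn1, Ccbe1, Tnc, Tnr, Vcan, Ncan, Bcan, Acan, Dcn, Bgn, Lum, Sparc, Sparcl1 and Postn. The rule as written uses no difference between the genotypes, but it was drawn up with earlier results of these data known. The share of its genes that passed is therefore not that of a blind choice. It took 99 of the 18193 genes on the array, read by 207 probe sets, and each gene is given by its probe set with the highest mean over the 6 arrays, a measured level that ignores genotype. The arrays were Affymetrix 3' expression arrays of RNA from newborn C57BL/6 mice (postnatal day 1), with 3 arrays of D6/Zbtb20S transgenic mice and 3 of their wildtype littermates, each of RNA pooled from 7 animals. The tissue was the subiculum and the retrosplenial cortex dissected together, and the labels call this tissue CA1-transformed in D6/Zbtb20S mice, after a field of the hippocampus. Zbtb20 is a zinc finger repressor of developing hippocampal neurons, and D6 names a regulatory element active in the developing cortex and hippocampus that drives the transgene there. The comparison asks which matrix and integrin genes differ between the transgenic tissue and its wildtype counterpart.

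The matrix of the newborn cortex has an interstitial part of fibrillar collagens, most of it in meninges and around vessels, a basement membrane of laminins and type IV collagen under the pia and around vessels, and a brain matrix of hyaluronan, lecticans and tenascins between the cells. Integrins are receptors of an alpha and a beta subunit that tie cells to laminin, collagen, fibronectin and other ligands. In the developing cortex they are known for holding radial glia to the pial basement membrane.

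Zbtb20 itself read 8.88, 9.10 and 8.94 on the log2 scale in D6/Zbtb20S arrays on probe set 1422064_a_at, against 6.44, 5.84 and 7.64 in wildtype arrays (2.33 ± 0.37, adjusted p = 0.00904 over all probe sets). Its other 8 probe sets did not pass (-0.37 to 0.85). Wildtype replicate 3 was the highest wildtype array on every Zbtb20 probe set. On those that did not pass, except 1437066_at, it also read above every D6/Zbtb20S array. On 1437598_at, for instance, it read 8.98, against 8.11, 8.26 and 8.25 in D6/Zbtb20S arrays. Of 7 measured markers of the retrosplenial cortex and subiculum, chosen with earlier results of these data known, 6 fell and 1 rose (100% passed, against 7.71% of all genes). Their mean was 5.75 to 5.91 in D6/Zbtb20S arrays and 7.76 to 7.90 in wildtype arrays, where array medians were 3.83 to 3.91. Pearson's r between arrays over all genes was 0.9961 to 0.9972 among D6/Zbtb20S arrays, 0.9943 to 0.9967 among wildtype arrays and 0.9884 to 0.9914 between genotypes.

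In all, 9 of the 99 genes passed the test, which was limma with Benjamini-Hochberg adjustment over all 18193 genes at an adjusted p under 0.05, and 4 were higher and 5 lower in D6/Zbtb20S tissue. That is 9.09% of them, where 7.71% of all genes passed (4.06% higher and 3.64% lower). The falls were Ccbe1, Fn1, Col9a3, Col9a1 and Col24a1, and the rises were Itga8, Lamb1, Itgbl1 and Thbs3. Among them Ccbe1, Fn1 and Itga8, 3 of the 99, also differed by 2-fold or more, as did 1.45% of all genes. The median change was -0.02 over the 99 genes and -0.02 over all genes, and the median absolute change was 0.12 and 0.10. Values are log2 signals, a change is D6/Zbtb20S minus wildtype with its standard error after ±, and SDs stand beside group means. The tissue was measured in bulk, so fewer cells of a type and less RNA per cell cannot be told apart in any of these changes. Of the 99 genes, 39 had means under the array median in both genotypes, where RMA values in general are known to understate differences, which was not tested here.

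**Figure D1:**
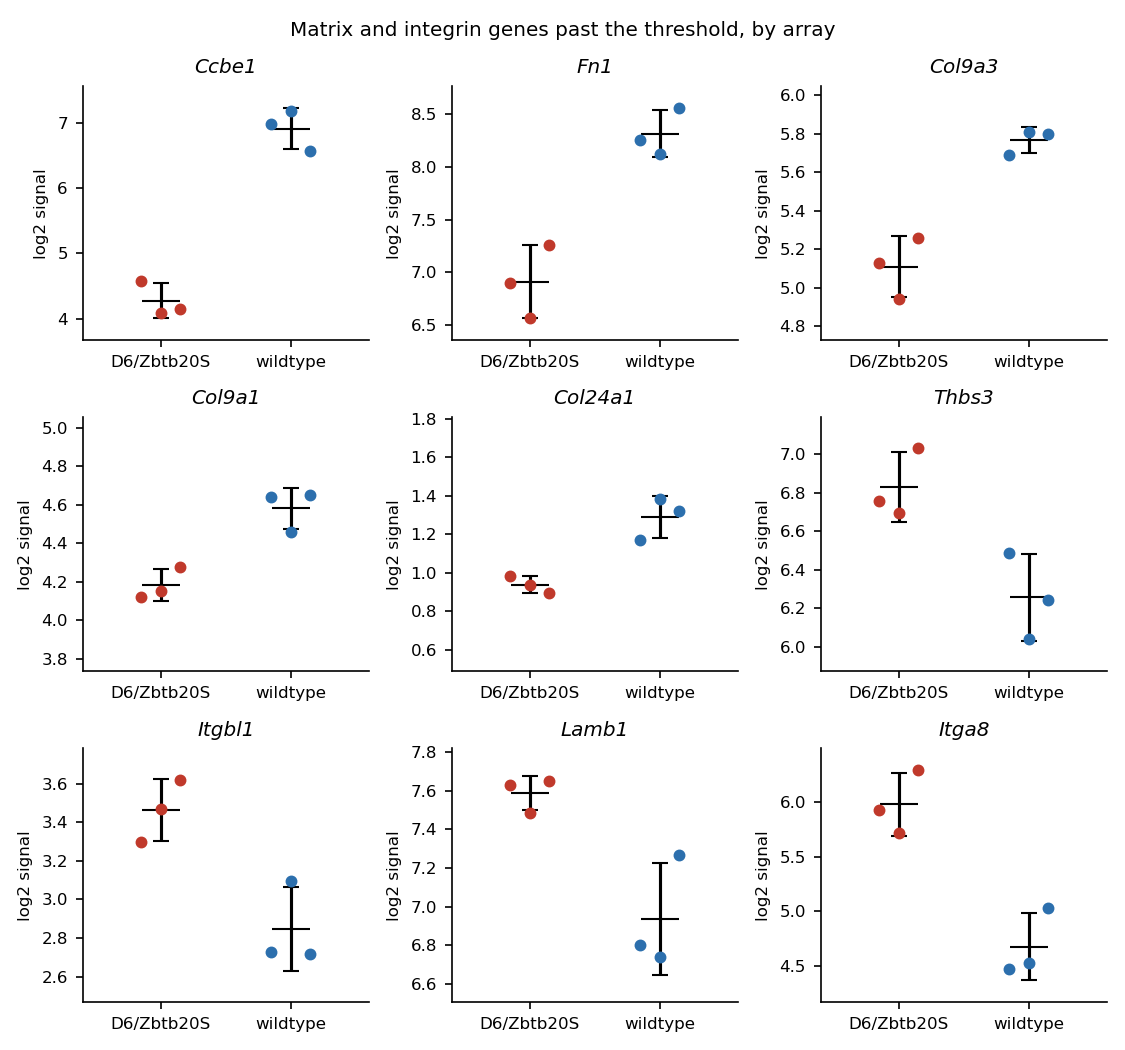
Log2 signal of the 9 matrix and integrin genes past the threshold, with a point for each array, D6/Zbtb20S left of wildtype, a line for the group mean and bars for the SD (n = 3 each), on an axis of its own per gene. The arrays of the genotypes do not overlap in any of the 9 panels, which comes with choosing genes that passed and adds no support. Ccbe1 is the furthest apart (4.27 against 6.91).

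Ccbe1 encodes a secreted protein with collagen-like and calcium-binding EGF-like domains that is needed in mice for lymphatic vessel growth, where it helps the protease ADAMTS3 to activate the growth factor VEGF-C. It read 4.58, 4.09 and 4.15 in D6/Zbtb20S arrays, against 6.98, 7.18 and 6.57 in wildtype arrays. The means were 4.27 ± 0.27 and 6.91 ± 0.31 (SD, n = 3 each), a fall of 6.22-fold (-2.64 ± 0.17, adjusted p = 2.05e-05). On the chosen probe sets this was the largest change among the 99 genes, while averaged over a gene's probe sets Fn1 changed by more (-2.27, against -0.95 for Ccbe1). On its chosen probe set every D6/Zbtb20S array lay far below every wildtype array. Of its 3 other probe sets, 1439327_at also fell (-1.09 ± 0.11, adjusted p = 0.00101 over all probe sets) and the remaining pair read -0.18 and 0.12 and did not pass.

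Fibronectin (Fn1) is the adhesive glycoprotein of plasma and of the interstitial matrix, a ligand of many integrins. Its signal was 6.90, 6.57 and 7.26 in D6/Zbtb20S arrays, against 8.26, 8.13 and 8.56 in wildtype arrays. The means of 6.91 ± 0.35 and 8.32 ± 0.22 (SD, n = 3 each) differed by -1.41 ± 0.17, a 2.65-fold fall (adjusted p = 0.000812). Its other probe set, 1437218_at, read 2.86, 2.73 and 2.95 in D6/Zbtb20S arrays, under the array medians, against 5.51, 6.06 and 6.40 in wildtype arrays. That is a fall of 8.84-fold (-3.14 ± 0.20, adjusted p = 0.000108 over all probe sets). Both probe sets fell, by sizes that differ, and the mean of the pair changed by -2.27.

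The other 5 adhesive and matricellular glycoproteins did not pass. Tenascin-R (Tnr), a glycoprotein of the brain matrix and of perineuronal nets, read 6.11, 5.99 and 6.40 in D6/Zbtb20S arrays and 5.61, 5.71 and 6.07 in wildtype arrays (0.37 ± 0.14, adjusted p = 0.171), and the arrays overlapped. Tenascin-C (Tnc), made by radial glia, changed by 0.09 (adjusted p = 0.788). Sparc, a collagen-binding glycoprotein, changed by 0.33 (adjusted p = 0.246), Sparcl1, its relative from astrocytes, by -0.07 and Postn (periostin) by -0.08.

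Among the integrins, Itga8 was the gene that passed of 25 alpha and beta subunits measured (4%, against 7.71% of all genes). Its product pairs with the beta 1 subunit in a receptor for fibronectin, tenascin-C, vitronectin and nephronectin. Itga8 read 5.93, 5.72 and 6.30 in D6/Zbtb20S arrays, against 4.47, 4.52 and 5.03 in wildtype arrays. It rose 2.47-fold, with means of 5.98 ± 0.29 and 4.68 ± 0.31 (SD, n = 3 each; 1.31 ± 0.18, adjusted p = 0.00151). The lowest D6/Zbtb20S array stood above the highest wildtype array. Its other probe set did not pass (-0.05, adjusted p = 0.833 over all probe sets), and the mean of both gave 0.63. The partner subunit Itgb1 changed by -0.05 ± 0.10 (adjusted p = 0.836). Of the ligands, Fn1 fell as above, and Tnc, nephronectin (Npnt, 0.13, adjusted p = 0.67) and vitronectin (Vtn, -0.03, adjusted p = 0.97) did not pass. These partners were picked after their values were seen.

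The 11 other alpha subunits of matrix receptors ranged from -0.23 to 0.26 with none past the threshold. Fibronectin's main receptor subunits Itga5 and Itgav read -0.09 and 0.07. In the 4 alpha subunits of leukocyte integrins, all of them under the array median in both groups, changes ran from -0.06 to 0.15. Itgal (0.13, adjusted p = 0.407) and Itgax (0.15, adjusted p = 0.692) had the smallest p there.

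None of the 9 beta subunits passed. Itgb8, whose product pairs with alpha v and activates latent TGF-beta, came nearest to the threshold of all the genes that missed it. It read 7.17, 6.96 and 6.64 in D6/Zbtb20S arrays, against 7.20, 7.47 and 7.60 in wildtype arrays (-0.50 ± 0.14, adjusted p = 0.0697). All 3 D6/Zbtb20S arrays lay below the wildtype arrays. Without wildtype replicate 1 it passed, at an adjusted p of 0.0451. Itgb2l, a relative of the leukocyte beta subunit Itgb2, was next (-0.18, adjusted p = 0.219).

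Itgbl1, which the symbol rule also takes, encodes a secreted protein with the EGF-like repeats of beta subunits and is no receptor subunit. It read 3.30, 3.47 and 3.62 in D6/Zbtb20S arrays and 2.73, 3.10 and 2.72 in wildtype arrays. The means were 3.46 ± 0.16 and 2.85 ± 0.22 (SD, n = 3 each), both under the array median (0.62 ± 0.12, 1.53-fold, adjusted p = 0.0145). The call was lost without wildtype replicate 1 (adjusted p = 0.0526), without D6/Zbtb20S replicate 2 (0.0511) and without D6/Zbtb20S replicate 3 (0.0581). Itgb3bp, Itgb1bp1 and Itgb1bp2, likewise taken by symbol, are no receptor subunits either and did not pass (0.32, -0.11 and 0.05).

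Laminins are trimers of an alpha, a beta and a gamma chain that form the sheet of basement membranes. Of 10 chains measured, 1 rose and none fell (10%, against 7.71% of all genes). Lamb1, the beta 1 chain found in most laminins of the embryo and of brain vessels, read 7.63, 7.49 and 7.65 in D6/Zbtb20S arrays, against 6.80, 6.74 and 7.27 in wildtype arrays. Its means were 7.59 ± 0.09 and 6.94 ± 0.29 (SD, n = 3 each), a 1.57-fold rise (0.65 ± 0.13, adjusted p = 0.016). Wildtype replicate 3 was the closest to the D6/Zbtb20S arrays. The probe set 1424113_at gave 0.62 ± 0.13 and passed over all probe sets (adjusted p = 0.0307), while 1451241_at gave 0.59 (adjusted p = 0.0576) and 1446180_at -0.08. The call was lost without wildtype replicate 1 (adjusted p = 0.0571) or 2 (0.0736), and without D6/Zbtb20S replicate 1 (0.0787) or 3 (0.0631).

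The chains that join beta 1 in laminin trimers did not pass: Lamc1 changed by -0.12 (adjusted p = 0.697), Lama1 by -0.24 (adjusted p = 0.463) and Lama2 by 0.18 (adjusted p = 0.334). Lama4 changed by 0.13 (adjusted p = 0.714) and Lama5 by 0.10 (adjusted p = 0.571). Lamc3 changed by 0.12 (adjusted p = 0.549). The basement membrane's 8 collagens lay close together, from -0.18 to 0.06, with none past the threshold. Col4a2 and Col4a3, chains of the type IV network, were first by p (-0.18 and -0.12, adjusted p = 0.453 and 0.494).

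Thbs3 encodes thrombospondin-3, a pentameric calcium-binding glycoprotein of the matrix. It read 6.76, 6.70 and 7.04 in D6/Zbtb20S arrays, against 6.49, 6.04 and 6.24 in wildtype arrays. Means of 6.83 ± 0.18 and 6.26 ± 0.23 (SD, n = 3 each) gave a 1.49-fold rise (0.57 ± 0.13, adjusted p = 0.0257), which was lost without wildtype replicate 2 (adjusted p = 0.106) and without D6/Zbtb20S replicate 1 (0.0764) or 3 (0.0837). Its single probe set gives no second reading. Thbs1, Thbs2 and Thbs4, of which Thbs1 and Thbs2 are known to promote synapse formation when released by astrocytes, ranged from -0.14 to -0.07 and were under the array median in both groups.

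Of 42 collagen chains, 3 fell and none rose (7.14%, against 7.71% of all genes), and 29 of the 42 changes were negative, where 9847 of 18193 were negative over all genes. The falls Col9a3 and Col9a1, are chains of collagen IX, a fibril-associated collagen that coats type II fibrils in cartilage and is also made in the eye and ear. Col9a3 read 5.13, 4.94 and 5.26 in D6/Zbtb20S arrays, against 5.69, 5.81 and 5.80 in wildtype arrays. The means of 5.11 ± 0.16 and 5.76 ± 0.07 (SD, n = 3 each) differ by 1.58-fold (-0.66 ± 0.10, adjusted p = 0.0025). A second probe set, 1460693_a_at, fell by 2.57-fold (-1.36 ± 0.14, adjusted p = 0.00125 over all probe sets), and 1420280_x_at did not pass (-0.14, adjusted p = 0.451).

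Col9a1 read 4.12, 4.15 and 4.28 in D6/Zbtb20S arrays, against 4.64, 4.46 and 4.65 in wildtype arrays. With means of 4.18 ± 0.08 and 4.58 ± 0.11 (SD, n = 3 each), it fell 1.32-fold (-0.40 ± 0.09, adjusted p = 0.0221). The other probe set, 1428571_at, fell by more (-0.98 ± 0.16, 1.97-fold, adjusted p = 0.0107 over all probe sets). On the first probe set the call was lost without wildtype replicate 1 (adjusted p = 0.0658) or 3 (0.0558), and without D6/Zbtb20S replicate 1 (0.098) or 2 (0.0816). Col9a2, the remaining chain of collagen IX, lay under the array median in both groups and changed by -0.19 (adjusted p = 0.323).

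Col24a1 encodes a fibrillar collagen. It read 0.98, 0.94 and 0.90 in D6/Zbtb20S arrays and 1.17, 1.38 and 1.32 in wildtype arrays, far under the array medians. Its means were 0.94 ± 0.04 and 1.29 ± 0.11 (SD, n = 3 each; -0.35 ± 0.08, 1.28-fold, adjusted p = 0.0329). It did not pass over all probe sets (adjusted p = 0.053). Nor did it pass without wildtype replicate 2 (adjusted p = 0.154) or 3 (0.0729), or without D6/Zbtb20S replicate 1 (0.0845), 2 (0.0976) or 3 (0.0877).

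The other 10 fibrillar collagens ran from -0.43 (Col3a1) to 0.62 (Col11a1), with wide standard errors of up to 0.27. Col11a1 read 5.68, 4.60 and 4.93 in D6/Zbtb20S arrays and 4.32, 4.39 and 4.65 in wildtype arrays, so that D6/Zbtb20S replicate 1 stood apart and the groups overlapped (adjusted p = 0.158). Its other probe set, 1418599_at, read 4.88, 4.10 and 4.41 in D6/Zbtb20S arrays and 3.60, 3.77 and 3.84 in wildtype arrays, with no overlap, and did not pass (0.73, adjusted p = 0.0538 over all probe sets). Col5a1 changed by -0.34 (adjusted p = 0.225). These genes were picked after their values were seen. In collagen VI and the anchoring collagen VII, Col6a2 (-0.20, adjusted p = 0.459) and Col6a3 (-0.15, adjusted p = 0.523) had the smallest p.

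Among the transmembrane collagens Col23a1 was lowest, at -0.37 (adjusted p = 0.121). It passed without wildtype replicate 1 (adjusted p = 0.0107). Col25a1, a neuronal transmembrane collagen found in amyloid plaques, gave -0.10 (adjusted p = 0.576) on its chosen probe set. Col10a1 and Col26a1 stood for the network and other collagens (-0.07 and -0.14, adjusted p = 0.748 and 0.77).

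**Figure D2:**
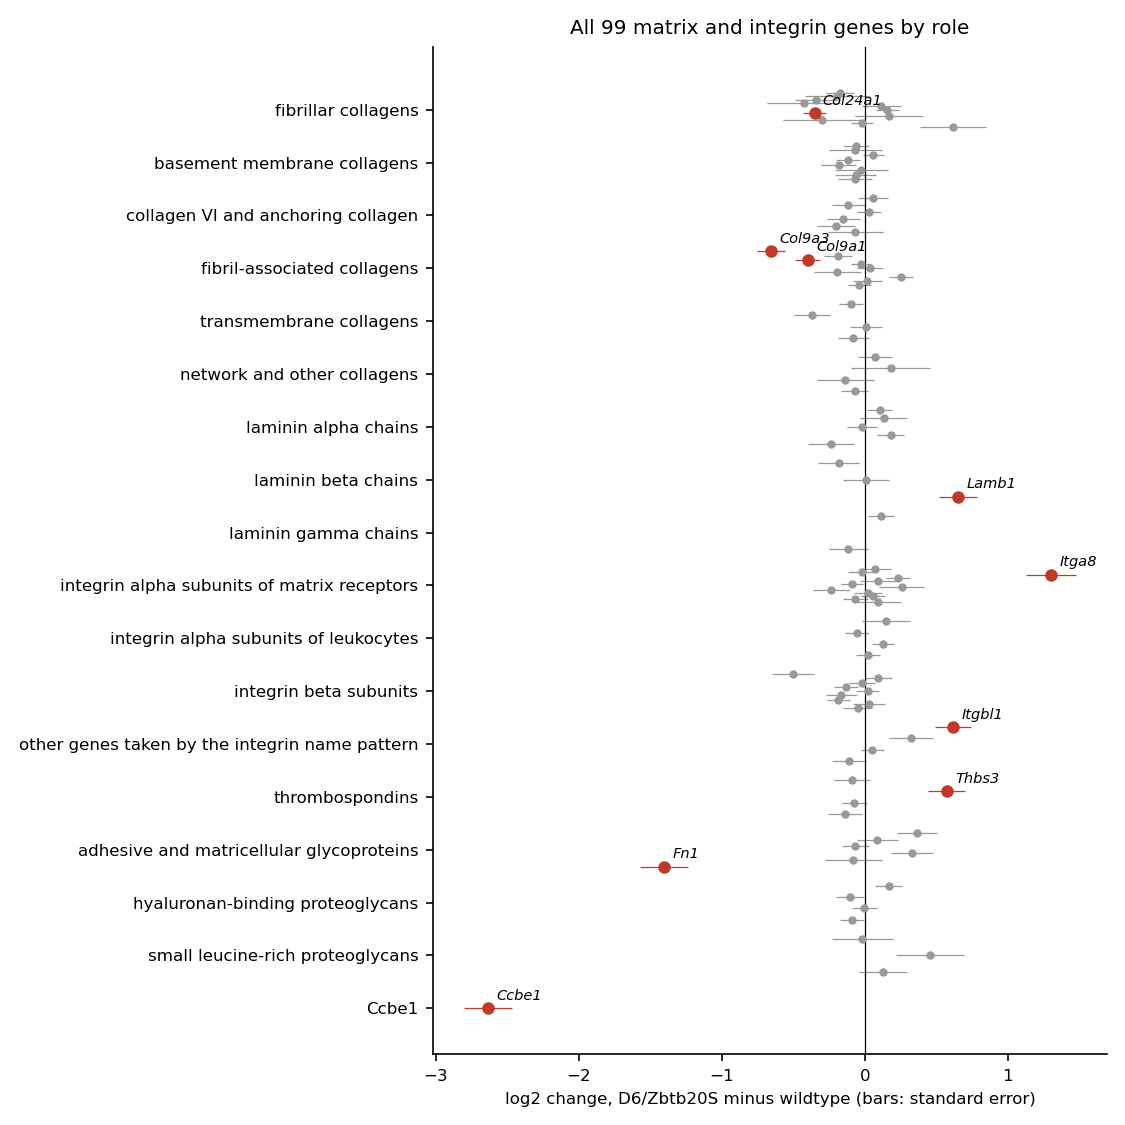
Change on the log2 scale (D6/Zbtb20S minus wildtype) of all 99 genes, with a point per gene grouped by role, bars for the standard error and larger red, named points for the 9 past the threshold. Most points lie near 0, the basement membrane collagens span only -0.18 to 0.06, and Ccbe1 (-2.64), Fn1 (-1.41) and Itga8 (1.31) stand out.

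The proteoglycans of the brain matrix showed no member past the threshold. Versican (Vcan), aggrecan (Acan), neurocan (Ncan) and brevican (Bcan), which bind hyaluronan, changed by 0.17, -0.09, -0.10 and 0.00. Adjusted p was 0.357 for Vcan and 0.61 for Acan. The small leucine-rich proteoglycans decorin (Dcn, 0.46, adjusted p = 0.33), biglycan (Bgn, 0.13, adjusted p = 0.729) and lumican (Lum, -0.02), which bind collagen fibrils, did not pass either. Dcn read 6.19, 5.55 and 6.45 in D6/Zbtb20S arrays and 5.39, 5.38 and 6.06 in wildtype arrays, with overlap.

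A gene's probe sets did not always read alike. Of the 207 probe sets, 16 passed over all probe sets, 8 higher and 8 lower. That is 7.73%, against 5.52% of all 45037, an unlike set that also holds unnamed probe sets and those with several symbols. The 16 lay in 11 genes. In 3 of those genes, picked after their values were seen, the chosen probe set did not pass but another did. Col25a1 read 5.02, 4.98 and 5.15 on 1438540_at in D6/Zbtb20S arrays, against 3.58, 3.94 and 4.49 in wildtype arrays (1.05 ± 0.20, 2.07-fold, adjusted p = 0.0186). Vcan read 5.06, 4.82 and 5.43 on 1421694_a_at in D6/Zbtb20S arrays, against 4.14, 4.01 and 4.60 in wildtype arrays (0.86 ± 0.19, 1.81-fold, adjusted p = 0.0351). Sparc read 8.36, 8.21 and 8.61 on 1416589_at in D6/Zbtb20S arrays, against 7.61, 7.61 and 8.01 in wildtype arrays (0.65 ± 0.14, 1.57-fold, adjusted p = 0.0352). In each the arrays of the genotypes did not overlap, which comes with picking probe sets that passed and adds no support. Which transcript each probe set reads was not examined.

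**Figure D3:**
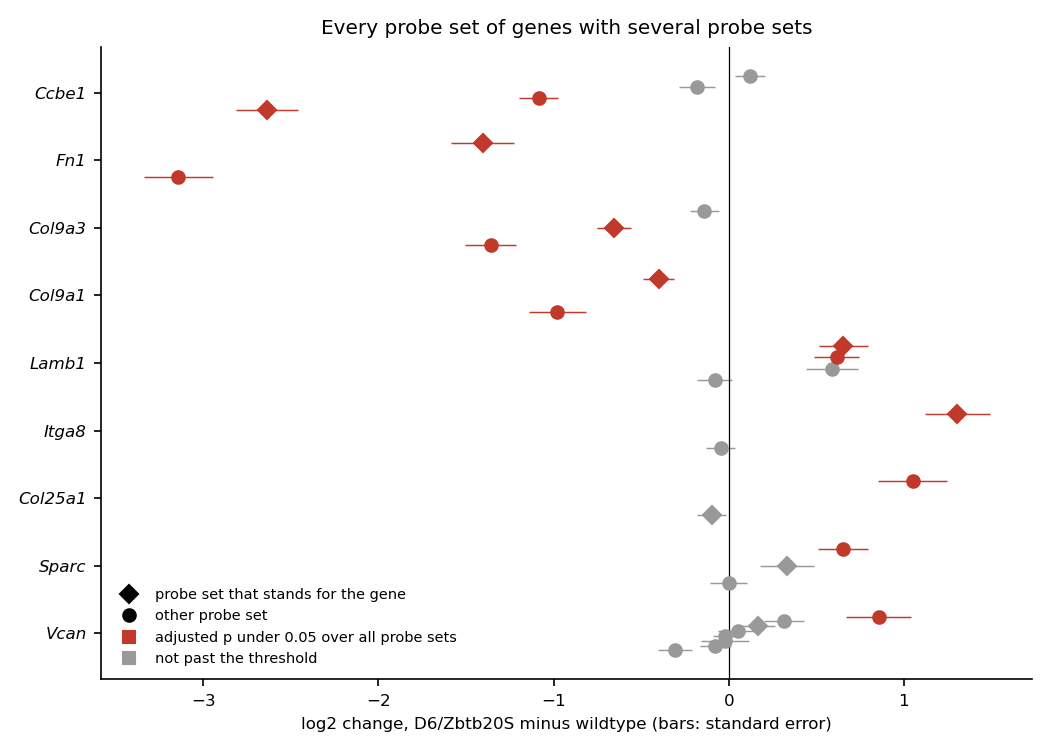
Change on the log2 scale (D6/Zbtb20S minus wildtype, bars for the standard error) of every probe set of the 9 genes that have several probe sets and at least 1 that passed. Diamonds are the probe sets that stand for the gene, and red marks those past the threshold over all probe sets. Both probe sets of Fn1 and both of Col9a1 lie below 0, while Itga8 has 1 at 1.31 and 1 at -0.05.

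The promoters of Itga8, Lamb1 and Thbs3, which rose together, are shown beside those of Col9a1, which fell, so that their letters can be compared. They are RefSeq sequences of GRCm38.p6, from 250 bases before to 50 after a transcription start, and 6 of the 9 passing genes had an entry. The motifs searched on both strands were GGGCGG (the GC box), CCAAT (the CAAT box), TATAAA (the TATA box) and ACAAAG (a SOX-type core), and capitals mark each match. No matches overlapped.
Itga8, chr2:12301895-12302194, minus strand: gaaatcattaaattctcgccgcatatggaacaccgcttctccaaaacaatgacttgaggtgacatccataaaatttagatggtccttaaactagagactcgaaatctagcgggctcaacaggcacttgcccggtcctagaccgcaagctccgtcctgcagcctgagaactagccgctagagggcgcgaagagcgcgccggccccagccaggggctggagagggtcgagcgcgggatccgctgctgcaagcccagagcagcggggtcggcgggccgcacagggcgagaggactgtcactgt
Lamb1, chr12:31265043-31265342, plus strand: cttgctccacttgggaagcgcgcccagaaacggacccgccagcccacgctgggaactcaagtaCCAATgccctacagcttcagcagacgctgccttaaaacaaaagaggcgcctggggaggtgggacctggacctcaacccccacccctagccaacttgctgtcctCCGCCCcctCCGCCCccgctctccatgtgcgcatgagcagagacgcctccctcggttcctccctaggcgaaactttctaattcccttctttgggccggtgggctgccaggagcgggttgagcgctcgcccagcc
Thbs3, chr3:89214930-89215229, plus strand: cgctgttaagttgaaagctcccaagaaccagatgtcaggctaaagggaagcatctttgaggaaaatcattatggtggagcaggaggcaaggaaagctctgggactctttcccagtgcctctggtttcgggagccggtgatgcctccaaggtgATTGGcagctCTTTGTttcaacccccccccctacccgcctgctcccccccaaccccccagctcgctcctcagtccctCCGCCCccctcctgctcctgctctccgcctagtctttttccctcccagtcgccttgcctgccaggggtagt
Col9a1, the first start, chr1:24177360-24177659, plus strand: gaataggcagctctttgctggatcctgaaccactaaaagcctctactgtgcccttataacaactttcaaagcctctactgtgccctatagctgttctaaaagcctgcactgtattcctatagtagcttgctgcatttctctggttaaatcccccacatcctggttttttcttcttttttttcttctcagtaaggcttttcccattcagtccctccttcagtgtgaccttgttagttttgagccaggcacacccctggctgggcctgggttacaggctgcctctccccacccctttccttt
Col9a1, the second start, chr1:24194953-24195252, plus strand: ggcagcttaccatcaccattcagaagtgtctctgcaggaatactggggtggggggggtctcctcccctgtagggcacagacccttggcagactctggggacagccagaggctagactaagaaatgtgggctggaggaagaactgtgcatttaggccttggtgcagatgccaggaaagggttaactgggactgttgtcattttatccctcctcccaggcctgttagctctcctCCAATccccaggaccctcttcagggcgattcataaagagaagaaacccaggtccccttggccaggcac
Lamb1 held 2 GC boxes and 1 CCAAT, Thbs3 held 1 GC box, 1 CCAAT and 1 ACAAAG, and the second start of Col9a1 held 1 CCAAT. Of 32851 mouse promoters of this length, 35.7% held GGGCGG, 37.4% CCAAT, 13.6% TATAAA and 18.7% ACAAAG. Among the 79 promoters of the 71 matrix and integrin genes with an entry, 44 held GGGCGG (55.7%), 24 held CCAAT (30.4%), 10 held TATAAA and 8 held ACAAAG (10.1%). A match is a description of letters, and the window of Itga8 and the first of Col9a1 held none of the 4.

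Replicate arrays differed in the level of interstitial matrix genes. For Col1a1, Col1a2, Col3a1, Col5a2, Col6a1, Dcn, Lum and Postn, picked after their values were seen and not tested, D6/Zbtb20S replicate 2 was the lowest array of its genotype in 8 of 8 genes and D6/Zbtb20S replicate 3 the highest in 8 of 8. Wildtype replicate 3 was the highest of its genotype in 7 of 8. The gap between the highest and lowest array was 0.77 to 1.03 within D6/Zbtb20S and 0.15 to 1.07 within wildtype. Col3a1, for instance, read 7.80, 7.02 and 8.05 in D6/Zbtb20S arrays and 7.77, 7.92 and 8.48 in wildtype arrays. Over all 99 genes, D6/Zbtb20S replicate 2 was the lowest of its genotype in 68.7%, against 40.7% of all genes. The median SD was 0.158 in D6/Zbtb20S and 0.147 in wildtype arrays over the 99 genes, against 0.102 and 0.101 over all genes.

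**Figure D4:**
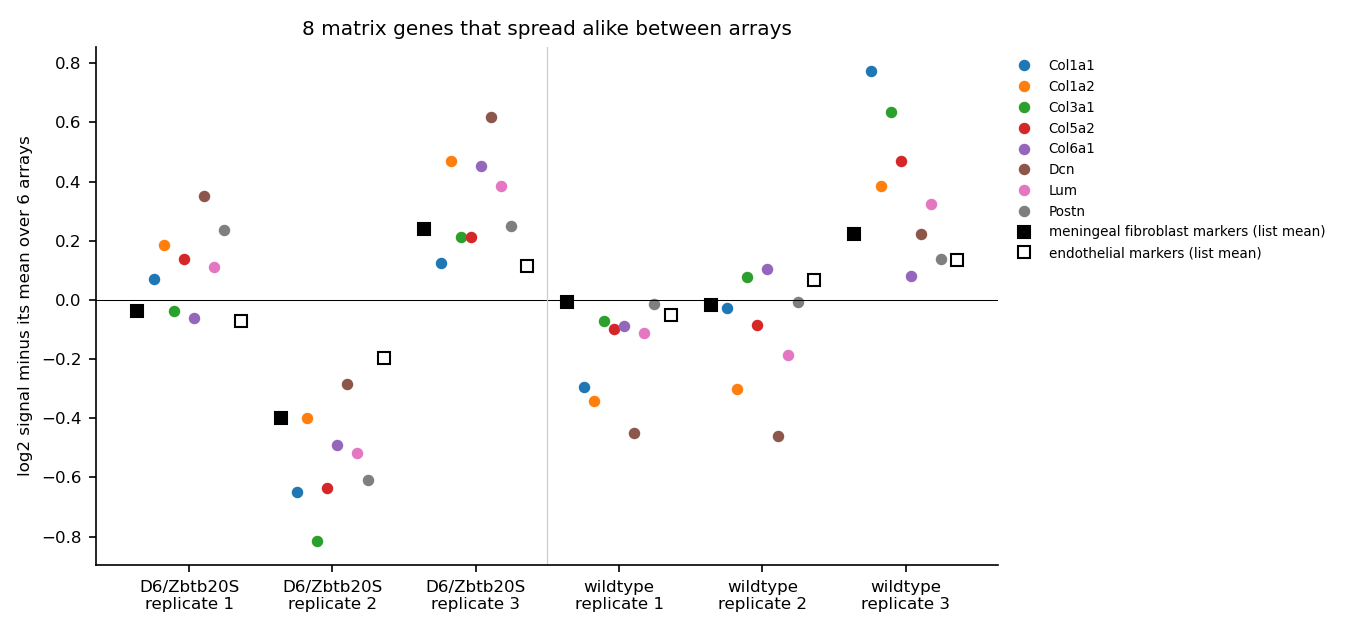
Deviation of each array from its gene's mean over the 6 arrays, in log2 units, for 8 interstitial matrix genes, with the D6/Zbtb20S arrays left of the wildtype arrays and squares for the means of the meningeal fibroblast (filled) and endothelial (open) marker lists. D6/Zbtb20S replicate 2 is the lowest array of its genotype in all 8 genes.

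Markers of meningeal fibroblasts, known makers of interstitial collagens, moved across the same arrays. The mean of 12 markers was 5.45, 5.09 and 5.73 in D6/Zbtb20S arrays and 5.48, 5.47 and 5.71 in wildtype arrays. None of the 12 passed (median -0.18), none was at 0, and their part in the spread was not tested. Vascular markers ran alike: 13 endothelial markers averaged 5.08 to 5.39 in D6/Zbtb20S arrays and 5.22 to 5.41 in wildtype arrays. Of the 13, 1 was lower (Slc2a1, a glucose transporter, -0.36 ± 0.08), which is 7.69%, against 7.71% of all genes. Of 10 pericyte and smooth muscle markers, 0 passed. The Slc2a1 call was lost on leaving out any array but wildtype replicate 1 (adjusted p up to 0.122).

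Other cell classes held passing markers too, in lists chosen with earlier results of these data known. Of 11 microglial markers, 4 rose (Cx3cr1 0.87, Tyrobp 0.69, Fcrls 0.55 and Ctss 0.49), which is 36.4%, against 7.71% of all genes. The mean of the 11 was 5.56 to 5.84 in D6/Zbtb20S arrays and 5.17 to 5.31 in wildtype arrays. Of 10 oligodendrocyte lineage markers, 4 fell (40%; Olig2 -0.77, Olig1 -0.68, Cnp -0.53 and Mbp -0.51), with means of 5.23 to 5.36 and 5.49 to 5.68. Of 11 GABAergic markers, 2 fell (18.2%, Gad1 -0.60 and Nxph1 -0.55). None of the 12 markers of astrocytes and radial glia, 6 of Cajal-Retzius cells or 6 of choroid plexus passed. The calls of Fcrls and Nxph1 were each lost in 4 of the 6 fits without an array (adjusted p up to 0.135). Averaged over its probe sets, Cx3cr1 gave 0.43. No marker in these lists was at 0, and their part in the matrix changes was not tested.

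All 7 neuronal markers measured for the dissected areas passed, where 7.71% of all genes did. Their list was chosen with earlier results of these data known, so this share is not that of a blind choice. Tshz2 (-4.20), Nr4a2 (-3.34), Nts (-2.51), Cxcl14 (-1.62), Cntn6 (-1.38) and Slc17a6 (-1.26) fell and Lypd1 (0.48) rose. Of 8 markers of cortical excitatory neurons, 4 passed (50%). Neurod2 (1.12), Bcl11b (0.99) and Camk2a (0.65) rose and Tbr1 (-1.41) fell. The calls of Lypd1 and Camk2a were each lost in 4 of the 6 fits without an array (adjusted p up to 0.188). Averaged over their probe sets, Slc17a6 gave -0.57 (adjusted p = 0.17), Lypd1 0.34 (0.106) and Camk2a 0.21 (0.212), and none of the 3 passed.

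Beyond the 99 genes, 9 lists of matrix pathway genes held 207 measured genes, of which 31 passed (15%, against 7.71% of all genes), 19 higher and 12 lower. The lists were chosen with earlier results of these data known, so neither this share nor that of any list is that of a blind choice. Of 14 genes of the CCBE1 and VEGF-C pathway, 3 rose and none fell (21.4% passed). Adamts3, the protease that CCBE1 assists, read 7.70, 7.86 and 7.67 in D6/Zbtb20S arrays, against 6.63, 6.69 and 6.46 in wildtype arrays (1.15 ± 0.09, 2.22-fold, adjusted p = 6.56e-05), the other way from Ccbe1. Nrp2, a co-receptor of VEGF-C and of semaphorins, rose 2.04-fold (1.03 ± 0.12, adjusted p = 0.000576), and Pdpn, a membrane glycoprotein of lymphatic endothelium, rose 1.61-fold (0.69 ± 0.09, adjusted p = 0.00139). Vegfc (-0.44 ± 0.16, adjusted p = 0.154), Vegfd (-0.18, adjusted p = 0.321) and the receptor Flt4 (-0.08, adjusted p = 0.77), picked after their values were seen, did not pass.

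Hyaluronan, the sugar polymer on which the brain matrix is built, showed calls in both directions. Of 12 genes of hyaluronan and perineuronal nets, 2 rose and 4 fell (50% passed, against 7.71% of all genes). The synthase Has2 read 5.49, 5.11 and 5.24 in D6/Zbtb20S arrays, against 3.31, 3.74 and 4.12 in wildtype arrays (1.56 ± 0.18, 2.94-fold, adjusted p = 0.000682), where the wildtype mean lay under the array median. Another synthase, Has3, fell (-0.40 ± 0.10, adjusted p = 0.0407). The receptor Cd44 rose (0.52 ± 0.13, adjusted p = 0.0374), while the receptor Hmmr (-0.35 ± 0.09, adjusted p = 0.0392) and Cemip, which helps to break hyaluronan down (-0.91 ± 0.20, adjusted p = 0.0233), fell. Ptprz1, a phosphatase and proteoglycan that binds tenascins, fell 1.63-fold (-0.70 ± 0.08, adjusted p = 0.000527). Hapln1, the link protein, changed by -0.90 ± 0.30 (adjusted p = 0.115) and was picked after its value was seen.

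Proteases that cut matrix gave 5 rises and 2 falls among 48 genes (14.6% passed, against 7.71% of all genes). Mmp2 (0.90 ± 0.10, 1.87-fold, adjusted p = 0.000436) and Mmp14, its membrane-bound activator (0.69 ± 0.15, adjusted p = 0.0226), both rose, as did Mmp11 (0.44 ± 0.08, adjusted p = 0.00652), Adamts3 and Adamts5 (0.29 ± 0.08, adjusted p = 0.044). Adamts20, a versican-cleaving protease, read 5.08, 4.63 and 4.82 in D6/Zbtb20S arrays, against 6.09, 6.34 and 6.60 in wildtype arrays (-1.50 ± 0.15, 2.82-fold, adjusted p = 0.000214). Adamts1, which also cleaves versican, fell (-0.59 ± 0.09, adjusted p = 0.0029).

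Among 35 other matricellular and elastic fibre genes, 2 rose and 6 fell (22.9% passed, against 7.71% of all genes). The testicans Spock3 (-0.94 ± 0.12), Spock2 (-0.44 ± 0.08) and Spock1 (-0.43 ± 0.09), which are proteoglycans of neurons, all fell (adjusted p = 0.00097, 0.00883 and 0.0133). Fibrillin-2 (Fbn2, -0.91 ± 0.13, adjusted p = 0.00181) and Ccn2 (-0.75 ± 0.09, adjusted p = 0.000872) fell while its relative Ccn1 rose (0.51 ± 0.12, adjusted p = 0.0334), as did Matn2, a matrilin (0.90 ± 0.23, adjusted p = 0.0434). Smoc1, a calcium-binding protein near basement membranes, fell (-0.53 ± 0.08, adjusted p = 0.00412), and Fbln2, a fibulin, was the rise among 17 basement membrane genes (0.49 ± 0.10, adjusted p = 0.0181). Smoc1 and Fbln2 were the calls among those 17 (11.8%). None of 11 further small leucine-rich proteoglycans passed.

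Matrix receptors other than integrins gave 5 rises and no fall among 22 genes (22.7% passed, against 7.71% of all genes). They were Robo1, the Slit receptor (0.84 ± 0.12, adjusted p = 0.0025), Lgals3, a galectin (0.45 ± 0.08, adjusted p = 0.00967), the syndecan Sdc2 (0.44 ± 0.11, adjusted p = 0.0362), the reelin receptor Lrp8 (0.34 ± 0.08, adjusted p = 0.028) and Cd44. Inside the cell, 1 of 30 genes of the integrin adhesion complex passed (3.33%), the adaptor Crkl (0.50 ± 0.11, adjusted p = 0.0217). Of 21 enzymes that modify or crosslink collagen, 9.52% passed. These were Colgalt2 (0.54 ± 0.10, adjusted p = 0.0116) and P3h3 (0.36 ± 0.08, adjusted p = 0.0182), and both rose.

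Of these 31 calls, 14 held in all 6 fits that left out an array: Smoc1, Has2, Ptprz1, Ccn2, Fbn2, Spock3, Adamts1, Adamts20, Adamts3, Mmp11, Mmp2, Robo1, Nrp2 and Pdpn. The other 17 were lost in at least 1 of them, at adjusted p up to 0.185, and Adamts5 was lost in all 6. Averaged over their probe sets, Crkl gave 0.13 (adjusted p = 0.354), Spock2 -0.19 (0.246), Sdc2 0.18 (0.192), Fbn2 -0.45 (0.138), Fbln2 0.21 (0.126), Adamts5 0.13 (0.282) and Mmp14 0.31 (0.0718). Adamts3 (0.65), Robo1 (0.47), Spock3 (-0.53) and Cemip (-0.38) kept their calls at smaller sizes.

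**Figure D5:**
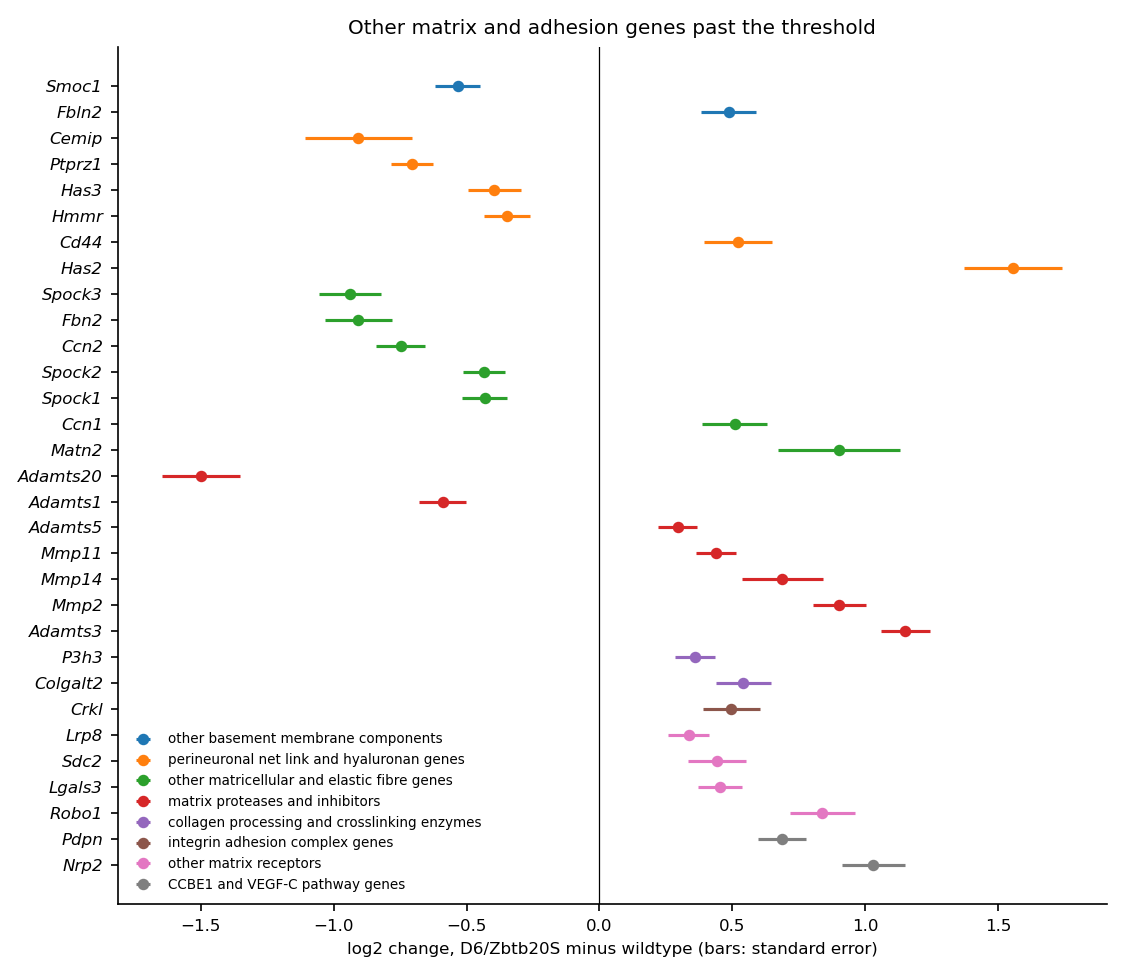
Change on the log2 scale (D6/Zbtb20S minus wildtype, bars for the standard error) of the 31 passing genes of the matrix pathway lists, with 19 to the right of 0 and 12 to the left. Has2 (1.56) and Adamts3 (1.15) are the furthest right and Adamts20 (-1.50) the furthest left.

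Members that lie next to each other in the genome were read side by side. The GRCm38.p6 gene table places 10 pairs of the 99 genes as neighbours, among them Col3a1 with Col5a2, Dcn with Lum, and Col4a1 with Col4a2. A passing gene stood in 1 of the 10 pairs, Col9a1 (-0.40) with Col19a1 (-0.19, not passing), and 6 of the 10 pairs had changes of the same sign. The D6/Zbtb20S and wildtype arrays did not overlap for 17 of the 99 genes (17.2%, against 26.1% of all genes), of which 8 did not pass. The rest are the 9 that passed, where lack of overlap comes with the choice and adds no support.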

How the data were processed

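The values analysed were the authors' deposited log2 signals, given for each probe set on each of the 6 arrays. The submitters' processing notes name RMA and limma without versions, and which annotation the authors used is not given in the sources used here. In RMA, background correction and normalization between arrays come before the probes of a set are summarised. Array medians were 3.86, 3.83 and 3.97 in D6/Zbtb20S and 3.83, 3.87 and 3.91 in wildtype arrays, so any centring stays unknown. Of 45101 probe sets, 64 controls were left out. In the platform annotation supplied for the array, used here for names, 34945 had 1 symbol, 932 several and 9160 were not named. For 6 of the 99 genes the probe set was of the _s_at or _x_at kind, which may read other transcripts too.

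All 18193 genes were fitted together in R 4.3.3 with lmFit and eBayes of limma 3.58.1 (1 coefficient per group, no covariates), and p-values were adjusted by Benjamini-Hochberg across them, or across all 45037 probe sets where the text says so. Every adjusted p in the text is from limma's moderated test, except those given for the model without moderation. These are from an ordinary t-test on the lmFit fit. Since no source states that the 3 pools of a genotype were of separate litters, p-values describe the spread between pools, which may be technical. The number of arrays limits the precision. Figures used matplotlib 3.10.9 in Python 3.11.15.

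The genes, roles and lists were chosen with earlier results of these data known. The rule for naming took every passing gene of the 99 and of the lists, every change of at least 1 on the log2 scale, the other probe sets of passing genes, Zbtb20 and, in a role with no pass, up to 2 genes with the smallest p.

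The fit was tested on data simulated for this comparison over 18193 genes with 200 changed. It recovered 50% of changes of 0.5 and 86% of changes of 1, with 2.86% false calls. In the data 1402 genes passed. Recovery under this adjustment depends on how many genes change, so these rates need not hold for the data. The alternatives run were equal medians, leaving out each array, a replicate block, quantile normalization, array weights, leaving out dim probe sets (those not above the median of their array on 3 arrays or more), averaging a gene over its probe sets, and a linear model without moderation.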

Additional observations from a re-analysis of the deposited data

How the results depend on the processing

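The count of 9 passing genes ranged from 5 to 8 when an array was left out, and was 1 (Ccbe1, adjusted p = 0.0401) with a linear model without moderation, which borrows no spread from other genes. The pathway lists' 31 calls ranged from 16 to 33 when an array was left out, and were 47 with array weights and 4 without moderation. Ccbe1 passed in every alternative, and Fn1, Itga8 and Col9a3 in all but the unmoderated model (adjusted p = 0.102, 0.118 and 0.0864). Array weights called 12 genes of the 99, adding Col23a1, Col5a1 and Itgb8. Counts over all 18193 genes moved too. From 1402 in the fit used throughout, they went to 777 to 1538 when an array was left out. They were 267 without moderation, 2707 with array weights and 1343 with the replicate block. Changes that were not past the threshold turned sign for some fits without an array. Col10a1 ranged from -0.14 to 0.0026, Col26a1 from -0.37 to 0.078, Lamc1 from -0.22 to 0.012, Itgax from -0.080 to 0.27 and Bgn from -0.033 to 0.29. The sign also turned for Itgax with array weights (-0.021), and for Lamc3 with the mean of probe sets (-0.083). With the mean of probe sets Col25a1 was positive and passed (0.48, adjusted p = 0.0191). The cause of these shifts was not tested. Deviations from the group mean gave r = -0.22, 0.18 and -0.01 between arrays of the same replicate number. Between arrays of unlike number r was -0.22 to 0.23. No source used here states whether the numbers pair the arrays, and so few arrays cannot decide it. With the replicate block 9 genes passed, losing Col24a1 (adjusted p = 0.0659) and adding Tnr (0.0491), and the pathway lists had 29 calls.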
